A study of Solanum lycopersicum x Solanum pennellii and Solanum lycopersicum with 7 samples.

Results

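The insertions and deletions (indels) listed for M82 leaf RNA are described here, 914 of the 48455 variant records of its library. M82 is the cultivated tomato background of the study's introgression lines. An indel record lists more or fewer bases for M82 than the reference genome holds there. The M82 allele below is the alternate allele listed first. Whether each record is a difference of the M82 genome was not tested. The members were chosen by their own values: records marked as indels with a variant quality of at least 30 and a depth of at least 10 reads. Of 4328 deposited indel records, 1791 had that quality, 1605 had that depth and 914 had both, beside 10395 single-base records past the same minimums. The record type, quality and depth are therefore not findings here.

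RNA was sequenced from leaves of field-grown tomato plants. The library of M82, labelled as the control line, entered as a list of variants. IL2-6, labelled with enhanced biomass, and IL3-2 are introgression lines, M82 with a segment of the wild relative Solanum pennellii, and entered with 3 libraries apiece as gene counts of 18479252 to 40146308 per library. They served only to count the genes seen in leaf, no treatment is labelled for any group, and the labels name a single-end and a stranded paired-end mRNA kit without saying which libraries used which. With 1 library of M82 there is no replicate and no test across samples. Intervals are 95% exact Clopper-Pearson intervals for shares and Newcombe intervals for differences of shares, both of counting error only. The labels mention no molecular identifiers, so reads need not be independent molecules, and records in the same gene share reads. The file gives no expression values, so the leaf origin of the M82 RNA could not be checked against marker genes.

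Indels arise most often where a short unit is repeated, because the copying strand can slip against its template by whole units, and runs of a single base and repeats of a pair of bases are the classic examples. In a protein-coding exon, an indel whose length is a multiple of 3 keeps the reading frame, and any other length shifts it. Tomato is largely selfing and M82 is an inbred variety, so a difference between M82 and the reference variety Heinz is usually carried on both chromosome copies. RNA shows variants only where genes are transcribed.

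The alleles below are those of the deposited list, on the plus strand of the SL2.50 tomato build, 5′ to 3′, with the inserted or deleted bases in capitals. Inside a repeat the placement of the capitals is arbitrary, since any copy of the unit could be the changed one. No gene annotation was used, so whether a record lies in an exon, an intron or an untranslated region is not stated. The first 3 alleles, at chr9:68367284-68367293, chr9:72338756-72338767 and chr11:3357225-3357236, are from the 5 deepest insertions of 2 bases. By the allele listed first, they show the commonest kind of indel in a run of like bases. At chr9:68367284-68367293 and chr11:3357225-3357236 an insertion of 1 base is listed as well, and the reads are not split between the alleles.
Chromosome 9 at 68367284, reference: gaaaaaaaaa
Chromosome 9 at 68367284, M82: gaaaaaaaaaAA
Chromosome 9 at 72338756, reference: taaaaaaaaaaa
Chromosome 9 at 72338756, M82: taaaaaaaaaaaAA
Chromosome 11 at 3357225, reference: cttttttttttt
Chromosome 11 at 3357225, M82: ctttttttttttTT

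The deepest homozygous indel of all, at chr11:4520371-4520379, ran the other way, as a deletion of 1 base from a run of A. Repeats of a pair of unlike bases are shown by records from the 5 deepest deletions of 2 bases, at chr4:51725388-51725412 and chr8:694980-694999, both listed as heterozygous. Beside them stands the homozygous insertion of such a pair with most copies, at chr2:41959516-41959534.
Chromosome 11 at 4520371, reference: caaaaaaaA
Chromosome 11 at 4520371, M82: caaaaaaa
Chromosome 4 at 51725388, reference: aatatatatatatatatatatatAT
Chromosome 4 at 51725388, M82: aatatatatatatatatatatat
Chromosome 8 at 694980, reference: ttatatatatatatatatAT
Chromosome 8 at 694980, M82: ttatatatatatatatat
Chromosome 2 at 41959516, reference: aagagagagagagagagag
Chromosome 2 at 41959516, M82: aagagagagagagagagagAG

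Every indel was 1 or 2 bases long. The M82 allele was shorter by 2 bases in 87 records and by 1 base in 226, and longer by 1 base in 353 and by 2 bases in 248. Insertions thus made up 601 of 914 (65.8%, 62.6% to 68.8%) and deletions 313 (34.2%, 31.2% to 37.4%). Lengths of 1 base made up 579 (63.3%, 60.1% to 66.5%) and lengths of 2 bases 335 (36.7%, 33.5% to 39.9%). A length that is a multiple of 3 was found in 0 of 914 records. Counting error alone would give an upper limit of 0.328% (3 counts for a count of 0) or 0.403% (exact interval). Neither is a limit for M82 itself, because the list holds no indel longer than 2 bases. Such a length was found in 0 of the 4328 deposited indels as well, before any minimum was applied. Counting every listed alternate allele in place of the first, none of the 1111 of the 914 records and none of the 4773 of all deposited indels differed from the reference by more than 2 bases. Which gap lengths the alignment and the variant caller allowed is not given in the sources used here, and the part of these settings in the absence of lengths of 3 or more was not tested. No listed allele therefore has a length that would keep a reading frame on its own.

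The indels fell into kinds by the sequence around them. Runs of at least 6 like bases in the longer allele held 321 of the 914 (35.1%, 32.0% to 38.3%), and the other 593 lay outside such runs. In runs, 282 of 321 indels were insertions (87.9%, 83.8% to 91.2%). Outside runs, 319 of 593 were insertions (53.8%, 49.7% to 57.9%), so insertions and deletions were nearly balanced there. The difference was 34.1 percentage points (28.4 to 39.2). Insertions of 2 bases were the largest class in runs, with 164 records against 118 insertions of 1 base. Outside runs the order was turned round, with 84 insertions of 2 bases and 235 of 1 base. These lengths are those of the alternate allele listed first. In runs, 186 of the 321 records list several, so the split by length there can depend on which is first. Because the longer allele of an insertion is the M82 allele, 13 insertions entered the run class through the M82 allele alone. With the run required in the reference allele, 87.3% of indels in runs and 54.8% of those outside were insertions.

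**Figure D1:**
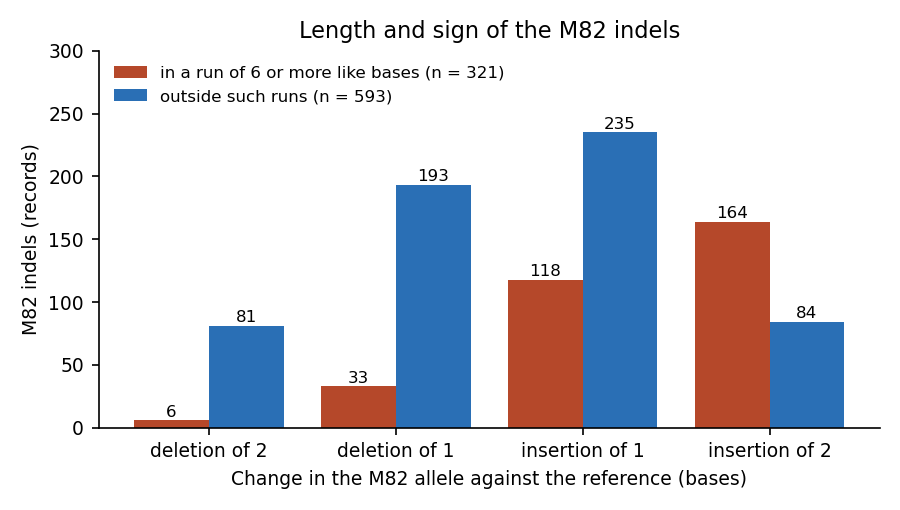
The bars count M82 indels (vertical axis, records) by the change in bases of the M82 allele listed first (horizontal axis). Red is for the 321 in runs of 6 or more like bases and blue for the 593 outside. The red bars climb to 164 insertions of 2 bases, while the blue bars peak at 235 insertions of 1 base and have nearly equal ends at 81 and 84.

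The runs were of A in 156 records and of T in 150, together 306 of 321 (95.3%, 92.4% to 97.4%). These are the same kind of repeat read from opposite strands, and they were about equally frequent. Runs of C or G made up 15 records (4.67%, 2.64% to 7.59%). In 1 record of this class the changed bases were not those of the run. Outside runs, A or T made up 268 of the 428 changes of 1 base (62.6%, 57.8% to 67.2%), with 141 of T, 127 of A, 89 of G and 71 of C.

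The reference run was 9 bases long in 111 of the 321 records in runs, the commonest length. Runs of 8 to 11 bases held 251 (78.2%, 73.3% to 82.6%). Among records with a reference run of 6 to 8 bases, 68 of 96 were insertions (70.8%, 60.7% to 79.7%). Among those with a run of 9 bases or more, 201 of 212 were (94.8%, 90.9% to 97.4%). Insertions of 1 base had a median reference run of 9 bases, insertions of 2 bases one of 10 and deletions one of 8. By the allele listed first, the balance of the lengths did not move steadily with the run. At 8 bases there were 13 insertions of 1 base and 27 of 2 bases, at 9 bases 63 of 1 base and 42 of 2 bases, at 10 bases 9 of 1 base and 36 of 2 bases, and at 11 bases 1 of 1 base and 39 of 2 bases. Only records with a variant are listed, so how many runs of each length the leaf RNA covered without a change is not known.

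**Figure D2:**
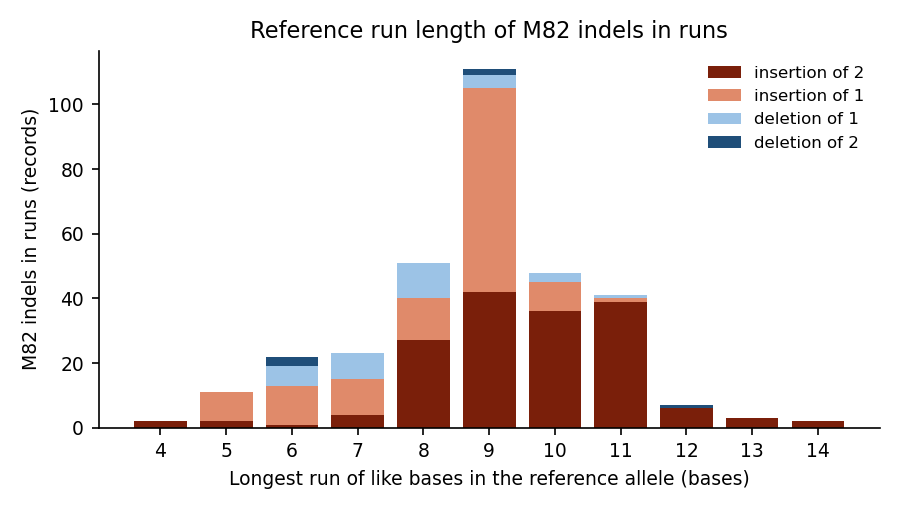
The stacked bars count the 321 M82 indels in runs (vertical axis, records) by the longest run in the reference allele (horizontal axis, bases). Colours give the length and sign of the allele listed first. The bar at 9 bases reaches 111 records, and insertions of 2 bases make up 36 of 48 records at 10 bases and 39 of 41 at 11 bases.

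Records in runs more often listed several alternate alleles, with 186 of 321 (57.9%, 52.3% to 63.4%), against 6 of 593 outside runs (1.01%, 0.372% to 2.19%). At chr9:68367284-68367293, for example, the list gives alleles with 2 and with 1 extra A, and the insertion of 2 was taken as the first listed. The median quality was 54.1 for all indels in runs and 163 for those outside, and the median depth was 33 reads in runs and 26 outside. With records of several alternate alleles left out, 74.8% of indels in runs were insertions.

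Outside runs, 130 indels of 2 bases changed a pair of unlike bases, and 71 of these were insertions (54.6%, 45.7% to 63.4%). Counting both strands and every rotation of the pair as the same unit, AT was changed in 46 records, AG in 46, AC in 35 and CG in 3. Units of AG were inserted in 32 of 46 records (69.6%, 54.2% to 82.3%) and units of AT in 19 of 46 (41.3%, 27.0% to 56.8%), a difference of 28.3 percentage points (7.95 to 45.5) between units picked after their values were seen. The longest repeat of AT in the longer allele had 15 copies and the longest of AG had 11. The alleles shown above, with 12 and 9 copies of AT and 10 of AG, are at this upper end.

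A homozygous genotype was given to 712 of the 914 indels (77.9%, 75.1% to 80.6%), against 7356 of 10395 single-base records (70.8%, 69.9% to 71.6%). The difference was 7.13 percentage points (4.20 to 9.85). In runs, 314 of 321 indels were homozygous (97.8%, 95.6% to 99.1%), which was 27.1 percentage points (24.6 to 28.5) above the single-base records. Outside runs, 398 of 593 were homozygous (67.1%, 63.2% to 70.9%), a difference of −3.65 percentage points from the single-base records with an interval of −7.62 to 0.117, which includes 0. Without the indels in reference runs, the difference for all other indels was −3.44 percentage points, and with no quality or depth minimum it was −6.19 over all deposited records. At a quality of at least 100 it was 1.03, and without records of several alternate alleles 1.46.

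The gap between the kinds of indel was present at every depth. In runs the homozygous share was 98.9% of 89 records at 10 to 19 reads, 97.7% of 129 at 20 to 49, 95.4% of 65 at 50 to 99 and 100% of 38 at 100 or more. Outside runs it was 65.8% of 231, 65.9% of 205, 73.3% of 90 and 67.2% of 67 in the same classes. For single-base records it was 68.6%, 69.2%, 70.6% and 80.0%. Outside runs minus single-base records, the difference was −12.8 percentage points at 100 reads or more (−24.9 to −2.56). In the other classes its interval included 0, with differences of −2.78 at 10 to 19 reads, −3.39 at 20 to 49 and 2.76 at 50 to 99. The class of 100 reads or more has no upper limit and is not matched in depth. The greatest depth in it was 241 reads for indels outside runs and 7998 for single-base records.

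**Figure D3:**
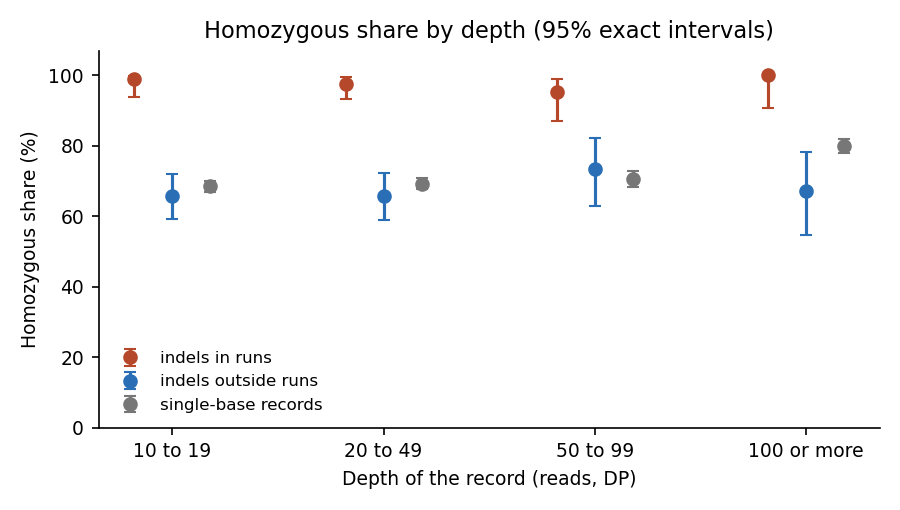
Points give the homozygous share in percent (vertical axis) in 4 classes of depth in reads (horizontal axis), with 95% exact intervals of counting error, for indels in runs (red), indels outside runs (blue) and single-base records (grey). The red points stay between 95.4% and 100%, above the blue and grey points in each class.

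By length and sign, 217 of 248 insertions of 2 bases were homozygous (87.5%, 82.7% to 91.3%), 275 of 353 insertions of 1 base (77.9%, 73.2% to 82.1%), 174 of 226 deletions of 1 base (77.0%, 70.9% to 82.3%) and 46 of 87 deletions of 2 bases (52.9%, 41.9% to 63.7%). Deletions of 2 bases stood lowest outside runs too, at 40 of 81 (49.4%, 38.1% to 60.7%), against 141 of 193 for deletions of 1 base (73.1%, 66.2% to 79.2%). The difference there was −23.7 percentage points (−35.7 to −11.1). Among these deletions, 12 of 27 that removed a unit of AT were homozygous, 9 of 17 for AC and 9 of 14 for AG, and 9 of 22 that removed 2 like bases. The deletions from repeats of AT at chr4:51725388-51725412 and chr8:694980-694999 are among the heterozygous ones. The first had 7 reads of the M82 allele and 31 of the reference allele, and the second had 15 of the M82 allele and 78 of the reference allele.

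Heterozygous indels had a median of 45.5% of reads with an alternate allele, with a lower quartile of 28.7% and an upper quartile of 66.7% (202 records). Heterozygous single-base records had a median of 33.3% (3039 records). Summed over records, reads of any alternate allele were 96.8% of those counted by allele at indels in runs, with 11324 such reads against 374 of the reference allele. Outside runs they were 82.8%, with 12669 against 2628. Where several alternate alleles are listed, as in 186 of the 321 records in runs, the reads are not split between them.

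The depth of a record and the reads behind its genotype were not the same thing. The list gives a depth (DP) and, separately, reads counted by allele and strand (DP4). At indels the reads counted by allele were a median of 81.5% of the depth, against 97.3% at single-base records. They were under 50% of it in 157 of 914 indels (17.2%, 14.8% to 19.8%) and in 99 of 10395 single-base records (0.952%, 0.775% to 1.16%). The deepest homozygous insertion of 2 bases, at chr9:68367284-68367293, had a depth of 229 but 18 reads counted by allele. None was of the reference allele, and the alternate alleles with 2 and with 1 extra A were not counted apart. The deepest deletion of 2 bases, at chr1:2947301-2947306, had a depth of 199 and 4 reads counted by allele. The insertion at chr9:72338756-72338767, at a depth of 225, had 146 counted reads with it and 1 without.

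In 32 indels (3.50%, 2.41% to 4.91%) the genotype rested on 2 or 3 reads although the depth ran from 10 to 198 (median 36.5). In 9 single-base records (0.0866%, 0.0396% to 0.164%) the genotype also rested on 2 or 3 reads, at depths of 10 to 21 (median 12). All but 1 of the 32 lay outside runs, 30 were listed as homozygous, 26 were insertions and 13 were insertions of a single G or C. The 5 records just inside the quality minimum, all at a quality of 30.2, were of this kind. Each was an insertion of 1 G or C with 2 reads of the M82 allele and none of the reference allele, at depths of 18 to 60. The 5 records just below the minimum had qualities of 29.5 to 29.7, and 4 of them were insertions of 1 or 2 bases in runs of A or T. These 4 had 11 to 40 reads of their alternate alleles together and none of the reference allele. At the depth minimum, 50 indels had 10 reads, and 49 others with enough quality had 9 reads and were left out.

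Some indels lay close to each other. Neighbouring indels were within 60 bases in 42 pairs, and in 17 of these they stood at successive positions. Such records need not be separate changes. At 1390541 and 1390542 on chromosome 4, for example, both records list 2 inserted bases of A in the same run. How many pairs list the same change again was not tested. In the 42 pairs, 26 had both records homozygous, 14 had opposite signs, 10 had a net length of 0 and 4 a net length of 3. The deepest homozygous pairs of net length 0 at successive positions were on chromosome 3, at chr3:60397895-60397897 and chr3:60397896-60397896, and on chromosome 5, at chr5:6767542-6767544 and chr5:6767543-6767543. Each deletes an A and inserts a G beside it, which leaves the length unchanged, and the pair on chromosome 3 is shown.
Chromosome 3 at 60397895, reference: gaA
Chromosome 3 at 60397895, M82: ga
Chromosome 3 at 60397896, reference: a
Chromosome 3 at 60397896, M82: aG

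All 4 pairs with a net length of 3 were insertions of 1 and 2 bases, homozygous in both records. The pair shown, 34 bases apart on chromosome 4 at chr4:61004078-61004079 and chr4:61004112-61004121, had 26 reads of the M82 allele at the first record and 14 at the second, and none of the reference allele. Whether any of them lies in a coding exon is not stated here, and whether the records of a pair sit on the same RNA molecule was not tested. With 1 indel kept of those within 10 bases, 889 were left.
Chromosome 4 at 61004078, reference: ct
Chromosome 4 at 61004078, M82: ctT
Chromosome 4 at 61004112, reference: cttttttttt
Chromosome 4 at 61004112, M82: ctttttttttTT

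The next question was whether indels gather where single-base records do. On the 12 numbered chromosomes, 900 indels and 10148 single-base records lay in 596 bins of 1 Mb, and a further 14 indels lay on unplaced sequence. Indels were found in 325 bins and single-base records in 583. The numbers of indels and of single-base records per bin had a Spearman rank correlation of 0.59 over the 596 bins. It was 0.42 for indels in runs and 0.55 for indels outside runs. In runs it was 0.18 at a quality of at least 100, 0.26 at a depth of at least 20 and 0.67 with neither minimum. Outside runs it was 0.52, 0.43 and 0.81 in the same settings. For homozygous records alone, the value over all indels was 0.46 over the 596 bins and 0.36 over the bins that hold a homozygous record. For homozygous indels outside runs against homozygous single-base records it was 0.51 over the 596 bins. These values are descriptions without a test, since the bins share the library, its depth and their gene density, and a bin with many expressed genes can hold more of every kind of record. Over bins of 0.5 Mb the correlation was 0.40 and over bins of 2 Mb it was 0.71.

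The densest bins were compared next. The 20 bins with most single-base records held 153 of 900 indels (17.0%, 14.6% to 19.6%) and 2776 of 10148 single-base records (27.4%, 26.5% to 28.2%). Of the indels in runs they held 29 of 316 (9.18%, 6.23% to 12.9%), and of those outside runs 124 of 584 (21.2%, 17.98% to 24.8%). The bins were picked for single-base records, so the share of single-base records is high by choice. The 20 bins with most indels held 195 of 900 indels (21.7%, 19.02% to 24.5%), high by choice in turn. The last 4 places fell among 12 bins tied at 6 indels, so these 20 bins held 1650 of 10148 single-base records (16.3%) with the tied bins poorest in them and 2056 (20.3%) with the richest. Among homozygous records alone, the 20 bins with most single-base records held 105 of 392 indels outside runs (26.8%, 22.5% to 31.5%) and 2480 of 7181 single-base records (34.5%, 33.4% to 35.6%).

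Grouped by their number of single-base records, the 109 bins with 3 to 5 held 0.284 indels in runs and 0.275 outside runs per bin. The 105 bins with 11 to 20 held 0.810 in runs and 1.18 outside runs. The 13 bins with 101 to 293 held 1.92 in runs and 7.46 outside runs. Between 11 and 100 single-base records per bin, indels in runs were at 0.810, 0.818 and 1.09 per bin in 3 classes of rising number. Those outside were at 1.18, 1.795 and 2.56. Bins with 1 to 2 single-base records held 0.0780 in runs and 0.149 outside, and bins with 6 to 10 held 0.558 and 0.600. The share of indels among all records of a class is not compared, because the classes were cut by the number of single-base records, which also fills most of the denominator.

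**Figure D4:**
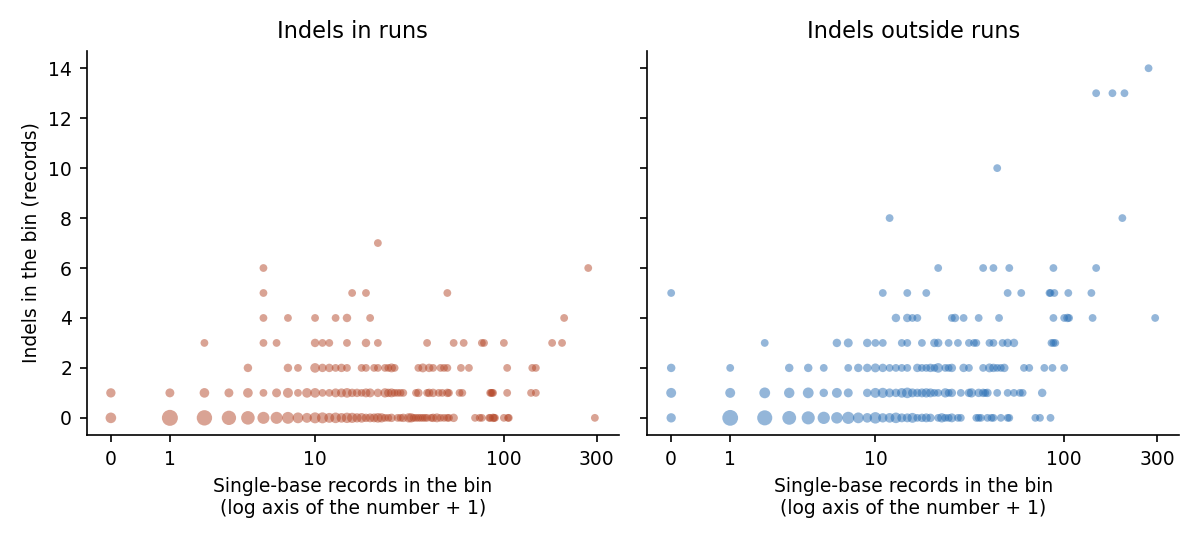
Each point is a pair of record numbers shared by 1 or more bins of 1 Mb (larger points for more bins), with single-base records per bin on a log axis of the number plus 1 and indels per bin on the vertical axis, for indels in runs (left) and outside runs (right). Bins with over 100 single-base records hold up to 6 indels in runs and up to 14 outside runs.

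The richest bin in indels, from 61000001 to 62000000 on chromosome 4, held 20 indels and 271 single-base records. All 20 were homozygous, 16 were insertions and 14 were 1 base long. The next, from 40000001 to 41000000 on chromosome 2, held 17 indels, of which 13 were homozygous and 10 were deletions, beside 204 single-base records. The third, from 60000001 to 61000000 on chromosome 4, held 16 indels, 12 of them homozygous, beside 177 single-base records. Of the 10 bins richest in indels and the 10 richest in single-base records, 5 were the same.

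Some bins did not match. The bin with most single-base records, from 55000001 to 56000000 on chromosome 4, held 4 indels, all homozygous and outside runs, beside 293 single-base records. In the other direction, the bin from 64000001 to 65000000 on chromosome 5 held 10 indels beside 12 single-base records. All 10 were homozygous and 8 lay outside runs, while 4 of the 12 single-base records were homozygous. From 97000001 to 98000000 on chromosome 1, 10 indels stood beside 51 single-base records, of which 6 were homozygous. There 5 indels lay in runs, and none of the 5 outside runs was homozygous. In 13 bins, 19 indels stood without any single-base record past the minimums.

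At close range the kinds of indel also differed. Indels in runs had a median distance of 25504 bases to the nearest single-base record, and indels outside runs one of 827 bases. The nearest other single-base record was a median of 98 bases from a single-base record. Within 100 bases of a single-base record lay 49 of 321 indels in runs (15.3%, 11.5% to 19.7%), 212 of 593 outside runs (35.8%, 31.9% to 39.8%) and 5238 of 10395 single-base records (50.4%, 49.4% to 51.4%).

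By chromosome, indels ran from 44 on chromosome 10 to 129 on chromosome 5. To allow for gene number, they were set against the genes with at least 10 counts in each of the 6 libraries of IL2-6 and IL3-2, 18630 in all, whose chromosome was read from the identifier. Chromosome 5 had 10.2 indels per 100 such genes, chromosome 4 had 7.40 and chromosome 11 had 6.60, and the median over the 12 chromosomes was 4.12. The same chromosomes led in single-base records, with 147 per 100 genes on chromosome 5, 103 on chromosome 4 and 84.8 on chromosome 11 (median 40.2). Indels in runs ranged from 0.758 per 100 genes on chromosome 2 to 2.80 on chromosome 11 (median 1.73), and chromosome 5 had 2.46. Indels outside runs ranged from 1.87 on chromosome 10 to 7.77 on chromosome 5 (median 2.47). Genes counted in the introgression lines stand in for genes expressed in M82, whose gene counts were not analysed here.

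**Figure D5:**
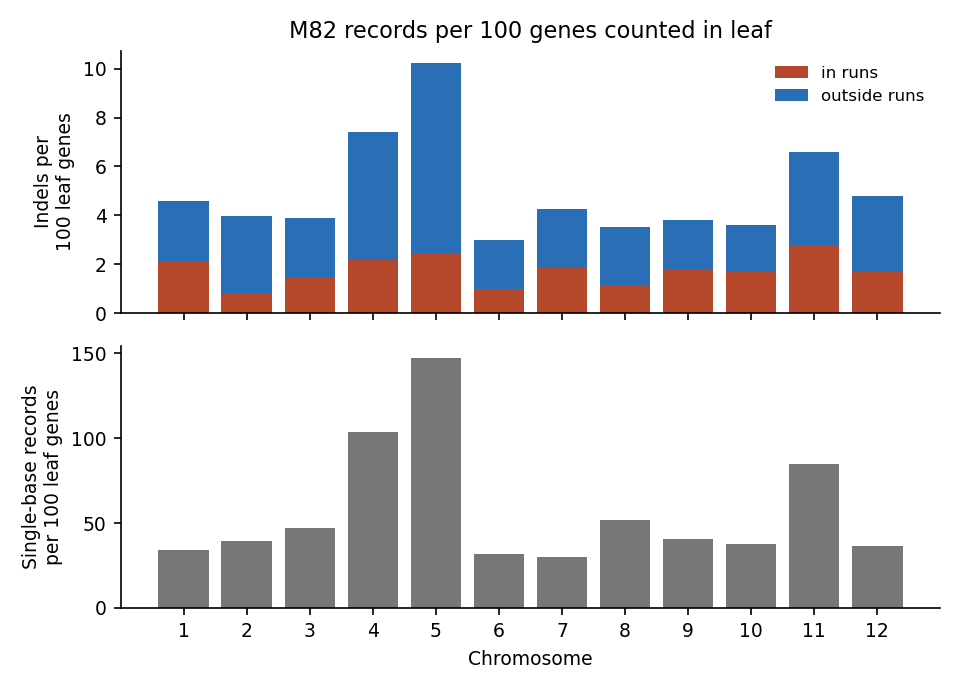
Bars give records per 100 genes counted in leaf (vertical axes) on each numbered chromosome (horizontal axis): indels in the upper panel, in runs (red) and outside runs (blue) stacked, and single-base records in the lower panel. Chromosome 5 is highest in both panels, at 10.2 indels and 147 single-base records, with a red part of 2.46.

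Indels made up 8.08% of all records past the minimums (7.59% to 8.60%), with differences between chromosomes. The share was 12.4% on chromosome 7 (9.57% to 15.7%), 11.8% on chromosome 1 (9.75% to 14.0%) and 11.5% on chromosome 12 (8.91% to 14.6%). It was 6.49% on chromosome 5 (5.45% to 7.67%) and 6.67% on chromosome 4 (5.54% to 7.96%), the chromosomes with most single-base records per gene. It was as low on chromosome 8, at 6.36% (4.72% to 8.34%), which had 3.52 indels and 51.9 single-base records per 100 genes. Chromosome 8 also had the lowest homozygous share of indels, 25 of 48 (52.1%, 37.2% to 66.7%), and outside runs 10 of 33. Chromosome 7 had the highest, 54 of 59 (91.5%, 81.3% to 97.2%), and outside runs 28 of 33. Single-base records of chromosome 8 were often heterozygous too. In its bin richest in them, from 63000001 to 64000000, 12 of 71 were homozygous, though in the next bin 43 of 49 were. On chromosome 5, 112 of 129 indels were homozygous (86.8%, 79.7% to 92.1%). On chromosomes 2 and 3, which the introgression lines are named for, 50 of 79 (63.3%, 51.7% to 73.9%) and 57 of 74 (77.0%, 65.8% to 86.0%) were.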

How the data were processed

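The M82 file lists variant records of 1 library with genotype, DP and DP4 fields. The variant quality is a score, deposited by the authors as the caller wrote it. Its chromosome names give the build SL2.50, and the fields were read by their usual meaning in variant files. The gene tables of IL2-6 and IL3-2 hold raw counts, deposited by the authors as 1 table per library with 34725 genes. Among the tools in the submitters' processing notes, with no role, are SAMtools 1.9 and TopHat2. Which program wrote the variants, and with what settings, is not given in the sources used here. Depth (DP) had a median of 28.5 reads over the indels and 27 over the single-base records.

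Size is the first alternate allele minus the reference allele in bases. Groups came from sample titles. Values were computed in Python (Python 3.11.15, pandas 2.3.3, scipy 1.17.1, matplotlib 3.10.9), tested on simulated records with known sizes and genotypes. The records, the run minimum of 6 bases and the groupings were chosen with earlier results of these data known. Records named were the 5 longest insertions and 5 longest deletions (ties by depth), the 5 deepest homozygous indels and the 5 on either side of each minimum, of which some are printed, and bins among the 10 richest in indels or single-base records. The 5 deepest multiples of 3, also in the rule, had no member. The pairs and the insertion in the AG repeat were chosen after their values were seen. Alternatives changed the quality and depth minimums, the source of depth and genotype, allele choice, runs, neighbours, chromosomes and bins.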

Additional observations from a re-analysis of the deposited data

How the results depend on the processing

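Over 14 results, 136 alternative values were computed, 62 of them for the 6 results by run class, which were added after the data were seen. Of all 136, 89 stayed within the 95% interval of the reported value, or within 1.5 times a count, and 2 changed sign. For the rank correlations this interval takes the bins as independent, although they share the library, its depth and gene density. It served there only to sort the alternatives. The multiple-of-3 share was 0 in each setting tried, which was fixed in advance because no deposited indel is longer than 2 bases. These values of 0 are among the 89. The homozygous share of indels minus that of single-base records was 7.13 percentage points as reported. It turned to −6.19 with neither minimum and to −3.44 with indels in reference runs left out, and was 1.03 at a quality of 100 and 1.46 without records of several alternate alleles.

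The number of indels was 463 at a quality of 100, 594 at a depth of 20 reads, 4328 with neither minimum and 606 without reference runs, by construction. The deletion share was 41.7% at a quality of 100, 31.0% at a depth of 20, 42.8% with neither minimum, 42.5% without several alternate alleles and 45.2% without reference runs. The share of 1 base was 67.0% at a quality of 100, 68.4% without several alternate alleles and 72.1% without reference runs. The homozygous share of all indels was 82.7% at a quality of 100, 59.8% with neither minimum, 72.2% without several alternate alleles and 67.3% without reference runs.

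The rank correlation over bins was 0.52 at a quality of 100, 0.44 at a depth of 20, 0.82 with neither minimum, 0.36 for homozygous records over the bins that hold one, 0.67 over bins with any deposited record, 0.40 for bins of 0.5 Mb and 0.71 for bins of 2 Mb. The share of indels in the 20 bins richest in single-base records was 23.6% at a quality of 100, 13.8% with neither minimum, 21.6% without reference runs and, since bins of another size cover another length, 13.4% for bins of 0.5 Mb and 23.8% for bins of 2 Mb.

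In runs, the insertion share was 74.8% without several alternate alleles and 92.1% for runs of 8 or more. The homozygous share in runs was 100% at a quality of 100, 83.8% with neither minimum, 95.6% without several alternate alleles and 99.3% for runs of 8 or more. The correlation in runs was 0.18 at a quality of 100, 0.26 at a depth of 20, 0.67 with neither minimum and 0.34 without several alternate alleles. Outside runs, the insertion share was 45.5% with neither minimum, the homozygous share 80.5% at a quality of 100 and 51.4% with neither minimum, and the correlation 0.43 at a depth of 20 and 0.81 with neither minimum. Where a value moved for no stated reason, the cause was not tested. No paired analysis was possible because the results come from no test and M82 has a single library. The genotypes of 154 of the 914 indels rested on under 10 reads counted by allele, and 122 of these were listed as homozygous. With depth taken from the reads counted by allele, 760 indels were left and 77.6% were homozygous, against 77.9% of all 914.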
